A study of Homo sapiens with 12 samples.

Results

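The Tribbles pseudokinases (TRIB1, TRIB2 and TRIB3), the sestrins (SESN1, SESN2 and SESN3) and 3 further stress-induced genes (CHAC1, NUPR1 and DDIT4) were followed in human stem cell-derived motor neurons exposed to the organochlorine pesticide cis-chlordane. The 9 genes were taken by name from a table of counts for 28278 gene symbols, and 8 of them had enough counts to be tested. All 12 libraries came from WA09-Islet1-GFP, a wild-type human embryonic stem cell line in which GFP is expressed together with the motor neuron transcription factor Islet1. Cells were differentiated to motor neurons, kept for 16 hours with cis-chlordane or with a matching volume of the solvent DMSO, and sorted by FACS on GFP. The 4 groups of 3 libraries were control GFP-positive, treated GFP-positive, control GFP-negative and treated GFP-negative cells. The sample labels give a dose of 10 µM, and the study's methods give another. Group membership was read from the library names of the count table and matches the treatment entry, since titles of treated cells start with untreated before naming the treatment. Same-numbered GFP-positive and GFP-negative libraries were taken as sorts of 1 culture, and each culture was an independent thaw of 1 line, so all values describe 1 genetic background.

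These genes act as brakes under stress. mTORC1 is a kinase complex on the lysosome that drives protein synthesis when amino acids and growth factors are at hand. Sestrins bind GATOR2 and so keep mTORC1 off when leucine is scarce, SESN2 being a leucine sensor. DDIT4, also named REDD1, acts upstream of the TSC complex, which switches off the GTPase RHEB. TRIB3 is a pseudokinase that binds the kinase AKT, while TRIB1 and TRIB2 bring the ubiquitin ligase COP1 to its substrates. CHAC1 cleaves glutathione, and NUPR1 is a small chromatin protein. TRIB3, CHAC1, SESN2 and DDIT4 are textbook targets of ATF4, the transcription factor of the integrated stress response, with CHOP (DDIT3) acting beside it on several of them. SESN1 is best known as a p53 target and SESN3 as a FOXO target.

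Promoter windows of 300 bases, from 250 before to 50 after the start of transcription, were read from RefSeq (GRCh38.p14) for 7 of the 9 genes at 11 start sites. Those of CHAC1, at chr15:40953221-40953520 (plus strand), DDIT4, at chr10:72273674-72273973 (plus strand), SESN2, at chr1:28259268-28259567 (plus strand), and TRIB2, at chr2:12716686-12716985 (plus strand), are shown because they contrast 3 genes that rose in both sort fractions with 1 that differed between the fractions. Capitals mark exact matches to 5 motifs searched on both strands.
CHAC1: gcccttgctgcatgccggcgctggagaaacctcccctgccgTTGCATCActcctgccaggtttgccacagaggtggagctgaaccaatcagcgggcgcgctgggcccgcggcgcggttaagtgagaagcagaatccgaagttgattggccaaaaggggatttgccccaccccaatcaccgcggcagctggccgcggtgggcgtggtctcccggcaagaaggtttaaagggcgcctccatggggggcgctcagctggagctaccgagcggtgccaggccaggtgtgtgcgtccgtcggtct
DDIT4: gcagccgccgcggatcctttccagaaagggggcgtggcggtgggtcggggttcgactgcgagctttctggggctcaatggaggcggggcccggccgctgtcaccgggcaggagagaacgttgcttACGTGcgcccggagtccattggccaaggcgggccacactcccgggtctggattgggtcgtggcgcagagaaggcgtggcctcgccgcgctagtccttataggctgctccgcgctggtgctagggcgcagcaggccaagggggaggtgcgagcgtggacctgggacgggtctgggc
SESN2: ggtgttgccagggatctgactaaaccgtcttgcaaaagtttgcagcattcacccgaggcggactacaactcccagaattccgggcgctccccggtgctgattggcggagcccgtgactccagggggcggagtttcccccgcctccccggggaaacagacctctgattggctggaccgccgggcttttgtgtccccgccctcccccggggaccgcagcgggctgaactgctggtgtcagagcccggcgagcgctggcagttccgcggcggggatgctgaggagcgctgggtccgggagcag
TRIB2: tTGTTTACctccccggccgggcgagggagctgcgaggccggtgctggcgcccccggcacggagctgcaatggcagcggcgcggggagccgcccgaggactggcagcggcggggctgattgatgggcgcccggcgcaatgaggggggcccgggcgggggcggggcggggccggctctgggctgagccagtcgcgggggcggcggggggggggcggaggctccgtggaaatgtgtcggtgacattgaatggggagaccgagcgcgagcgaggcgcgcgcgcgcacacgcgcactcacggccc
The C/EBP-ATF response element TGATGNAA was found in CHAC1 alone among the 7 genes, starting 209 bases before the start and read there as TTGCATCA, since it lies on the opposite strand. It is present in 3.62% of 35116 RefSeq promoter windows. DDIT4 held the hypoxia response core ACGTG 125 bases before its start, a motif in 21.4% of windows, and TRIB2 held the FOXO site GTAAACA on the opposite strand, 249 bases before its start (3.42% of windows). The windows of TRIB3, SESN1, SESN2 and SESN3 held none of the 5 motifs. The cAMP response element TGACGTCA (1.85% of windows) and the unfolded protein response core ACGTGG (9.72%), which contains ACGTG, matched no window of these genes. A match is a run of letters and not a measured binding site.

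The libraries held between 23414935 and 38347050 counts. ISL1 checked the sort, with a mean of 65.7 ± 3.12 CPM (counts scaled to library size, here by TMM; SD, n = 3) in control GFP-positive and 2.57 ± 0.202 CPM in control GFP-negative cells, and it stood at 12.0 ± 3.70 CPM in treated GFP-positive cells. Summed CPM of 8 motor neuron markers ranged from 1721 to 1924 in control and from 513 to 702 in treated GFP-positive cells. That of 10 progenitor and cycling markers ranged from 2942 to 3290 and from 2377 to 3189, and that of 7 mesenchymal markers from 245 to 308 and from 49.0 to 78.5. In GFP-negative cells the motor neuron sum ranged from 299.5 to 343 in controls and from 110 to 144 after treatment, the progenitor sum from 6385 to 8179 and from 7334 to 8388, and the mesenchymal sum from 736 to 855 and from 462 to 744. Although the progenitor sum did not fall there, 5 of 9 tested progenitor and cycling markers were called lower under the limits given below. Of these 9, 0 were called higher, and their median log2 fold change was -1.20. Over all genes in that contrast, 1512 of 15513 were called lower. In GFP-positive cells 1 of 9 was called higher and 2 lower, beside 1959 and 1716 of all 15333 genes. HES5, AQP4, POU5F1, NANOG and TDGF1 had no library above 3 counts in any group. In bulk RNA, fewer cells of a type and less RNA per cell cannot be told apart, and the part of these shifts in the results was not tested.

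To ask how the 8 tested genes responded, the contrast of treatment against control was fitted separately for each fraction. A gene was called a DEG when edgeR's quasi-likelihood test gave a Benjamini-Hochberg adjusted p under 0.05 over all genes tested and a fold change of at least 2. TRIB3, CHAC1, SESN2 and DDIT4 rose in both fractions. TRIB1 rose in GFP-negative cells, while TRIB2, SESN1 and SESN3 were called in neither fraction. In GFP-positive cells 4 of 8 genes were called higher, against 12.8% of all 15333 genes tested. In GFP-negative cells 5 of 8 were called higher, against 8.59% of 15513 genes. The median log2 fold change of the 8 was 1.61 and 1.93, beside 0.03 and -0.01 over all genes. Complete separation of treated from control libraries was seen for 6 of 8 genes in GFP-positive cells (5 higher and 1 lower, SESN1) and for 5 of 8 in GFP-negative cells, against 57.5% and 46.6% of all genes, so separation alone set these genes little apart.

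**Figure D1:**
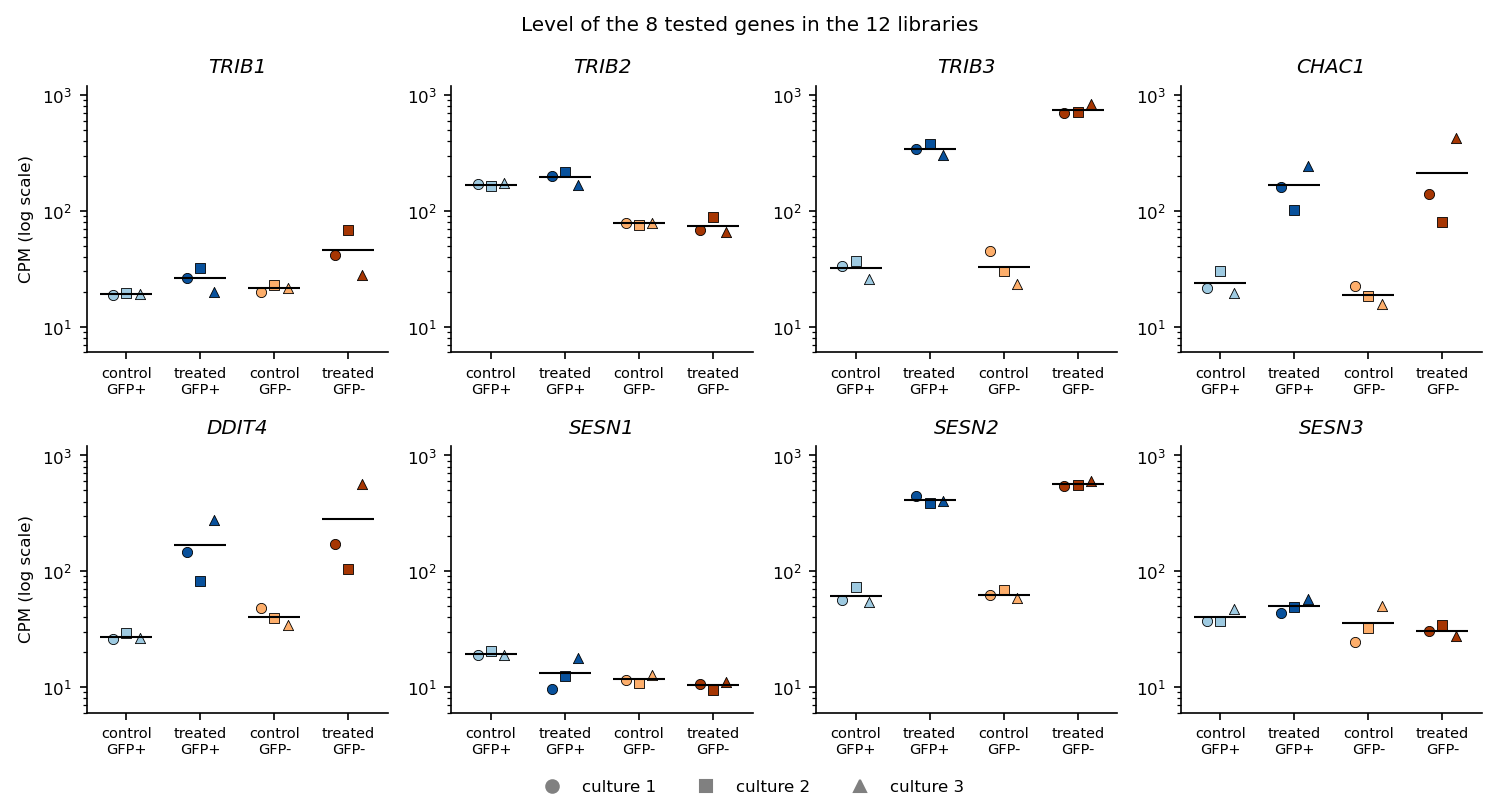
Level of each tested gene in the 12 libraries, in CPM on a log scale, with 1 panel per gene. Symbols mark the culture, horizontal bars are means of 3 libraries, and TRIB3 and SESN2 show tight treated groups while CHAC1 and DDIT4 spread widely, up to 571 CPM for DDIT4.

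Among the Tribbles, TRIB3 (ENSG00000101255, chr20:362835-397559, plus strand, hg38) had the largest response of the 8 genes. Its level in cultures 1, 2 and 3 was 33.5, 36.9 and 25.7 CPM in control GFP-positive cells and 344.5, 378 and 304 CPM in treated GFP-positive cells. The groups lay far apart, with a log2 fold change of 3.48 ± 0.18 (SE; adjusted p = 1.4e-17, edgeR), an 11.2-fold rise that ranked 137 of 15333. In GFP-negative cells TRIB3 stood at 44.7, 30.2 and 23.3 CPM in controls and at 698, 717 and 836 CPM after treatment. This 22.6-fold rise (log2 fold change 4.49 ± 0.26, adjusted p = 1.1e-05, edgeR) ranked 35 of 15513.

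TRIB1 (ENSG00000173334, chr8:125430358-125438403, plus strand) responded less, and unevenly between cultures. In GFP-positive cells it read 18.7, 19.4 and 18.97 CPM in controls and 26.4, 32.3 and 19.9 CPM in treated cultures, a log2 fold change of 0.53 ± 0.19 with an adjusted p of 0.022 (edgeR) but under the 2-fold limit. In GFP-negative cells it read 20.0, 22.7 and 21.5 CPM and then 41.8, 67.9 and 28.2 CPM. All treated libraries lay above all controls in both fractions, by as little as 19.9 against 19.4 CPM in GFP-positive cells. TRIB1 rose in GFP-negative cells (log2 fold change 1.08 ± 0.29, adjusted p = 0.018, edgeR), but the call was lost in 5 of 15 alternatives, among them each of the fits without control culture 2 (adjusted p = 0.058), treated culture 1 (0.056) or treated culture 2 (0.055). Without treated culture 2 the log2 fold change was 0.69.

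TRIB2 (ENSG00000071575, chr2:12716910-12742734, plus strand) was marked by the sort and not by treatment. It read 169, 164 and 174 CPM in control and 201, 215 and 169 CPM in treated GFP-positive cells, and 79.2, 76.2 and 78.2 CPM in control and 68.1, 88.4 and 65.9 CPM in treated GFP-negative cells. Treated and control libraries overlapped in both fractions. The log2 fold change was 0.27 ± 0.16 (adjusted p = 0.14, edgeR) in GFP-positive and -0.09 ± 0.17 (adjusted p = 0.71) in GFP-negative cells, and their 95% intervals, from -0.03 to 0.58 and from -0.41 to 0.23 by a normal approximation, lay within a 2-fold change.

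SESN2 (ENSG00000130766, chr1:28259518-28282491, plus strand) gave the most even response between cultures. In GFP-positive cells it rose from 56.8, 73.1 and 54.6 CPM to 444, 388 and 405 CPM. In GFP-negative cells it rose from 62.3, 68.1 and 58.2 CPM to 545, 554 and 603 CPM. The treated libraries differed among themselves by 1.15-fold and 1.11-fold from lowest to highest, while the rise was 7.03-fold in GFP-positive (log2 fold change 2.81 ± 0.17, adjusted p = 9.6e-16, edgeR) and 8.90-fold in GFP-negative cells (3.15 ± 0.16, adjusted p = 5.4e-06).

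The other sestrins did not follow SESN2. SESN1 (ENSG00000080546, chr6:108984309-109094846, minus strand) read between 19 and 20.3 CPM in control and 9.51, 12.5 and 18.0 CPM in treated GFP-positive cells. All treated values lay below the controls, with culture 3 close to them (log2 fold change -0.48 ± 0.21, adjusted p = 0.057, edgeR). In GFP-negative cells SESN1 read 11.6, 10.8 and 12.7 CPM and 10.5, 9.45 and 11.0 CPM, with overlap (log2 fold change -0.20 ± 0.20, adjusted p = 0.48). SESN3 (ENSG00000149212, chr11:95165513-95232541, minus strand) read 36.8, 37.0 and 47.5 CPM in control and 43.9, 49.5 and 57.3 CPM in treated GFP-positive cells (log2 fold change 0.38 ± 0.18, adjusted p = 0.070). In GFP-negative cells it read 24.6, 32.6 and 50.2 CPM and 30.3, 34.4 and 27.3 CPM (log2 fold change -0.24 ± 0.25, adjusted p = 0.50), the control libraries alone differing by 2.04-fold.

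CHAC1 (ENSG00000128965, chr15:40952962-40956512, plus strand) rose in every treated culture, to very different levels. It read 21.6, 30.2 and 19.5 CPM in control and 160, 102 and 245 CPM in treated GFP-positive cells, and 22.6, 18.5 and 15.7 CPM in control and 139, 79.6 and 425 CPM in treated GFP-negative cells. The lowest treated library stood well above the highest control in both fractions. The log2 fold change was 2.90 ± 0.23 (adjusted p = 6.1e-13, edgeR) in GFP-positive and 3.48 ± 0.54 (adjusted p = 0.0012) in GFP-negative cells, and 2.50 in the latter without treated culture 3.

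DDIT4 (ENSG00000168209, chr10:72273919-72276036, plus strand) showed the same spread. It read 26.1, 29.4 and 26.3 CPM in control and 147, 82.6 and 274 CPM in treated GFP-positive cells, and 47.8, 39.2 and 34.4 CPM in control and 170, 103.5 and 571 CPM in treated GFP-negative cells. The groups were fully separated. The log2 fold change was 2.69 ± 0.25 (adjusted p = 3.1e-11, edgeR) in GFP-positive and 2.77 ± 0.54 (adjusted p = 0.0039) in GFP-negative cells, and 1.73 in the latter without treated culture 3. NUPR1 (ENSG00000176046, chr16:28532708-28539008, minus strand) was barely counted, with 2, 0 and 0 counts in control and 2, 1 and 4 counts in treated GFP-positive libraries, and 0, 0 and 0 counts in control and 8, 0 and 6 counts in treated GFP-negative libraries. A floor of 3 counts per library corresponds to between 0.0794 and 0.129 CPM. NUPR1 did not pass the filter in any comparison, and no fold is given.

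**Figure D2:**
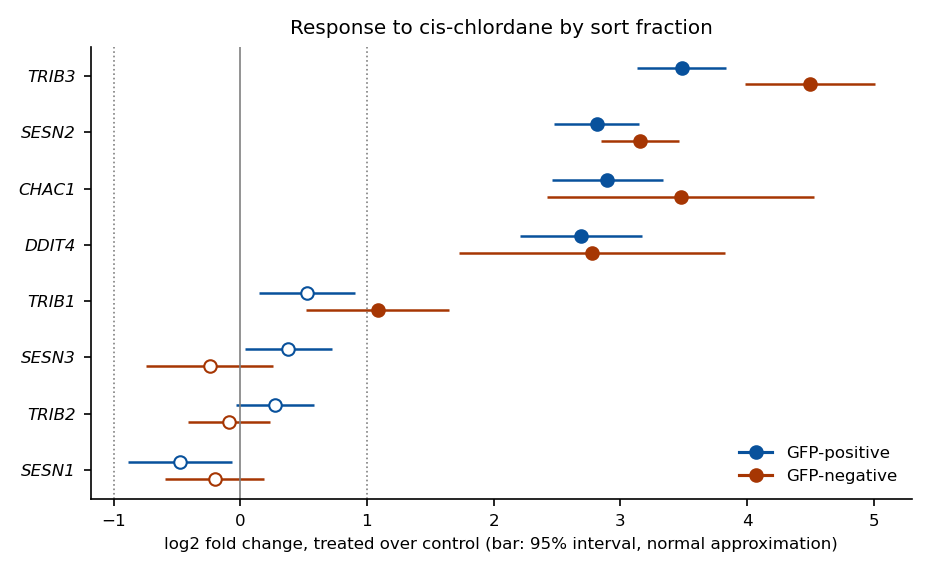
Log2 fold change of treated over control for each tested gene, with bars of 95% intervals from the SE by a normal approximation, in GFP-positive (blue) and GFP-negative (brown) cells. Filled points are called and dotted lines mark a 2-fold change, and 4 genes lie beyond 2.5 in both fractions while TRIB2, SESN1 and SESN3 lie near 0.

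Because paralogues can only be compared per length, CPM was divided by the exon length of each gene in kilobases. In control GFP-positive cells TRIB2 made up 72.0 ± 3.13% (SD, n = 3) of the summed Tribbles level and TRIB3 18.9 ± 3.17%. After treatment TRIB3 made up 68.0 ± 0.747% and TRIB2 27.9 ± 0.446%. In GFP-negative cells TRIB3 went from 30.4 ± 7.03% to 89.2 ± 3.21%. The summed Tribbles level was 2.98-fold higher in treated GFP-positive and 7.93-fold higher in treated GFP-negative cells, so the leading Tribbles transcript changed from TRIB2 to TRIB3 in both. SESN2 already led the sestrins, with 73.0 ± 4.07% in control GFP-positive and 78.5 ± 5.51% in control GFP-negative cells, and reached 94.7 ± 1.12% and 97.4 ± 0.245% after treatment. The summed sestrin level was 5.18-fold and 7.27-fold higher.

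**Figure D3:**
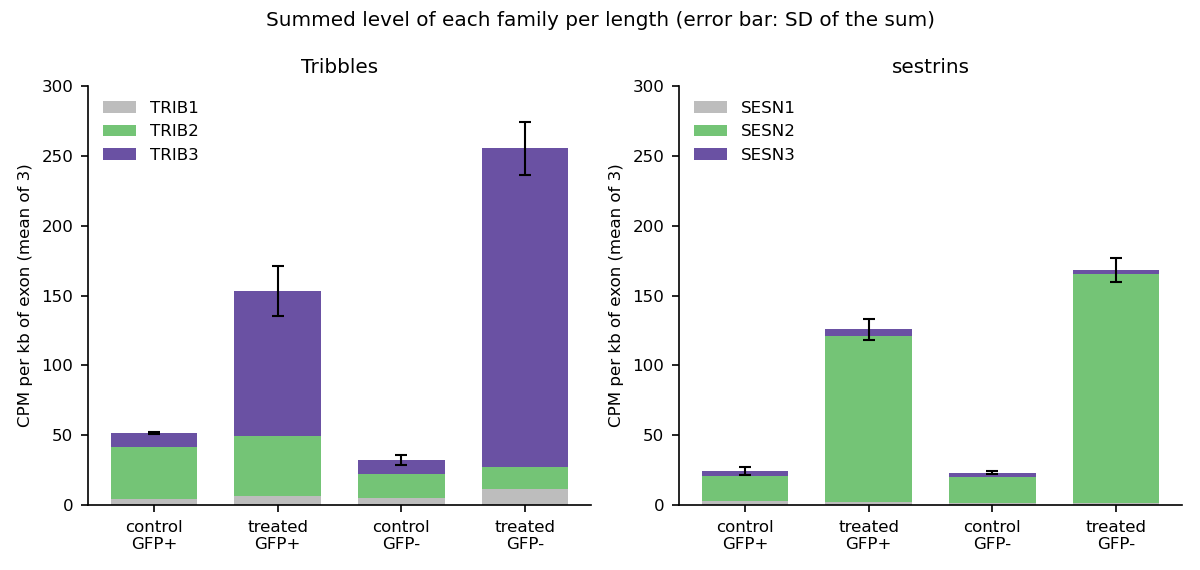
Summed level per kilobase of exon of the Tribbles (left) and the sestrins (right) in each group, as stacked means of 3 libraries with the SD of the sum. TRIB3 fills most of the treated Tribbles bars, which reach 153 in GFP-positive and 255 in GFP-negative cells, and SESN2 fills most of every sestrin bar.

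For CHAC1, DDIT4, TRIB1 and TRIB2 the treated cultures stood in an order that both fractions shared. For TRIB3 and SESN3, culture 3 stood at opposite ends in GFP-positive and GFP-negative cells. Against the mean of cultures 1 and 2, culture 3 held 1.88-fold more CHAC1 and 2.39-fold more DDIT4 in GFP-positive cells, and 3.89-fold and 4.17-fold more in GFP-negative cells. Culture 2 was the lowest for both genes in both fractions. The SD of log2 CPM among treated libraries was larger for CHAC1 and DDIT4 than for 99.2% and 99.8% of genes in GFP-positive cells, and than for 99.9% in each case in GFP-negative cells. TRIB1 ran the other way, highest in culture 2 and lowest in culture 3 in both fractions, while TRIB3 and SESN2 varied by 1.24-fold at most. For 20 other targets of ATF4 and CHOP, the median log2 ratio of treated culture 3 to the mean of cultures 1 and 2 was -0.15 in GFP-positive and -0.13 in GFP-negative cells. Over all genes it was -0.01 in each. Of the 20, 0 were at least 2-fold higher in treated culture 3, in either fraction. Only 85 of 16226 genes were in each, so 0 of 20 does not set these targets apart from other genes. DDIT3, which encodes CHOP, passed that mark in GFP-negative cells, as the 1 gene of 12 transcription factors to do so. The fractions of a culture came from the same culture and are not independent.

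**Figure D4:**
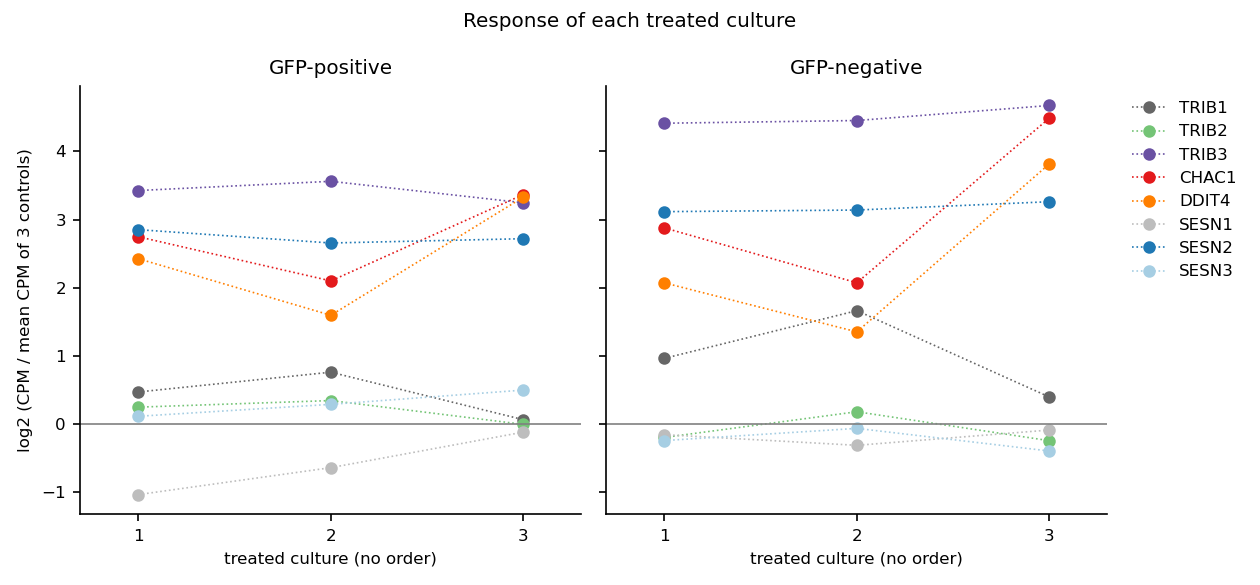
Log2 ratio of each treated culture to the mean of the 3 control libraries of its fraction, for 8 genes in GFP-positive (left) and GFP-negative (right) cells. CHAC1 and DDIT4 peak in culture 3 in both panels, while TRIB3 and SESN2 are nearly level, and cultures have no order.

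The fractions were next compared with each other. In control cells 1 of 8 genes was called, against 22.8% of 15404 genes. TRIB2 was 2.02-fold higher in GFP-positive cells (log2 fold change 1.01 ± 0.13, adjusted p = 1.6e-04, edgeR), and 2.14-fold, 2.15-fold and 2.23-fold higher within cultures 1, 2 and 3. That call sat at the 2-fold limit and was lost without control GFP-positive culture 3, at a log2 fold change of 0.99. DDIT4 was lower (-0.67 ± 0.17, adjusted p = 0.010) and SESN1 higher (0.63 ± 0.18, adjusted p = 0.018) in GFP-positive cells, both under the limit. CHAC1, TRIB3, SESN2 and SESN3 overlapped between the fractions of control cells.

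In treated cells 2 of 8 genes were called between the fractions, against 23.7% of 15416 genes. TRIB2 was 2.67-fold higher in GFP-positive cells (log2 fold change 1.41 ± 0.17, adjusted p = 2.6e-05, edgeR). TRIB3 was 2.16-fold lower there (-1.11 ± 0.14, adjusted p = 4.6e-05), and lower in each of the 3 cultures. TRIB1 (-0.80 ± 0.28, adjusted p = 0.033) and SESN2 were also lower (-0.44 ± 0.13, adjusted p = 0.014) and SESN3 was higher (0.73 ± 0.17, adjusted p = 0.0038), all under the limit. DDIT4 and CHAC1 overlapped. Within cultures 1, 2 and 3, DDIT4 was lower in GFP-positive cells by a log2 ratio of -0.21, -0.33 and -1.06, while CHAC1 was higher in cultures 1 and 2 (0.20 and 0.36) and lower in culture 3 (-0.79). Leaving out the GFP-negative library of treated culture 3 alone turned both fitted directions, with its GFP-positive sort kept. Pan-neuronal markers were also higher in GFP-positive cells, with 6 of 8 called in control and 7 of 8 in treated cells, and their part in the TRIB2 difference was not tested.

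Whether the response itself differed between fractions was tested as the interaction of treatment and fraction over all 12 libraries, with no minimum fold. Without a term for the culture 0 of 8 genes were called, against 2.19% of 16226 genes. TRIB3 came closest, its response being smaller in GFP-positive cells by 1.10 ± 0.29 on the log2 scale (adjusted p = 0.063, edgeR). It was the 1 gene that DESeq2 called, which supports nothing here, as given under processing. With the culture as a block, which rests on the pairing assumed for the sorts, 1 of 8 genes was called, against 7.79% of 16226 genes. TRIB3 was that gene, with a difference of -1.14 ± 0.22 (adjusted p = 0.0064), and its treated libraries were lower in GFP-positive cells in 3 of 3 cultures. The next lowest adjusted p were those of TRIB1 (-0.58 ± 0.20, adjusted p = 0.092), SESN2 (-0.42 ± 0.17, adjusted p = 0.14) and SESN3 (0.49 ± 0.22, adjusted p = 0.19), none of them called. In the same fit DDIT4 differed by 0.02 ± 0.23 (adjusted p = 0.96) and CHAC1 by -0.40 ± 0.28 (adjusted p = 0.40). The 95% interval in that fit ran from -0.42 to 0.47 for DDIT4 and from -0.95 to 0.15 for CHAC1, by a normal approximation. Without the block the intervals were much wider, from -1.50 to 1.14 and from -1.91 to 0.56. How far the responses of these genes differed was therefore not closely bounded.

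Genes that act with these brakes were read from lists. In GFP-positive cells the machinery of mTORC1 was read beside the 12.8% of all genes called higher, with 1 of 5 genes of the TSC complex and RHEB called higher, 1 of 3 of GATOR1, 2 of 8 of GATOR2 and the amino acid sensors, 0 of 4 of KICSTOR, 4 of 13 of the Rag GTPases, Ragulator and folliculin, and 1 of 9 subunits of the mTOR complexes, none of them lower. Medians of these lists lay between -0.36 and 0.47. The genes named from them were RHEBL1, a relative of RHEB (log2 fold change 1.62 ± 0.25), CASTOR1, an arginine sensor (1.31 ± 0.22), SEC13, which also belongs to the COPII coat (1.30 ± 0.16), FNIP1, a folliculin partner (1.74 ± 0.22), and LAMTOR3 of Ragulator (1.38 ± 0.19). DEPTOR, an inhibitory mTOR subunit named after its value was seen, rose by 1.25 ± 0.29.

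Downstream, 2 of 13 substrates and translation brakes were called higher and 0 lower, near the 12.8% of all genes. PDCD4, an inhibitor of translation initiation, rose from 8.19 ± 1.26 to 46.1 ± 2.56 CPM (SD, n = 3; log2 fold change 2.56 ± 0.20, adjusted p = 4.1e-13, edgeR). EIF4EBP1, which holds the cap-binding protein eIF4E, rose from 110 ± 21.9 to 326 ± 64.1 CPM (log2 fold change 1.63 ± 0.18, adjusted p = 1.4e-09). Both rose in GFP-negative cells too, by 1.96 ± 0.29 and 2.11 ± 0.21 on the log2 scale, where 3 of 13 were called higher, against 8.59% of all genes. Of the AMPK list, 1 of 8 was called higher, again near that share, the subunit PRKAB2 (1.29 ± 0.17), and 1 lower, the upstream kinase CAMKK2 (-1.10 ± 0.16), named after its value was seen. Over all 15333 genes, 1716 were called lower.

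Regulators of the 9 genes rose in number. Of 12 transcription factors known to induce them, 9 were called higher in GFP-positive and 7 in GFP-negative cells and 0 lower, with medians of 1.84 and 1.65. ATF3 rose from 16.8 ± 1.93 to 375 ± 49.6 CPM and DDIT3 from 17.1 ± 3.40 to 200.2 ± 57.7 CPM in GFP-positive cells. All 20 other targets of ATF4 and CHOP were called higher in both fractions, with medians of 2.21 and 2.51. These lists were chosen with earlier results of these data known. The paper also gives STC2 and TNFRSF10B of that list as highly upregulated in the same RNA-seq, so the count is a description and not a test. In GFP-positive cells the most changed of them were SLC7A11, the cystine transporter (5.63 ± 0.25), and STC2, a secreted stanniocalcin (4.49 ± 0.20). Targets of p53 had 6 called higher and 2 lower of 19 (median 0.41). Those of hypoxia factors had 4 higher and 1 lower of 14 (median 0.88). Those of FOXO factors had 6 higher and 2 lower of 13 (median 0.59). Over all 15333 genes, 1959 (12.8%) were called higher and 1716 lower, with a median of 0.03. The higher counts of these lists lay above that share of all genes, and the lower counts lay near theirs. EDA2R (3.95 ± 0.24), GADD45A (2.52 ± 0.19), VEGFA (4.10 ± 0.18), ADM (2.62 ± 0.48), GADD45B (3.34 ± 0.25) and FBXO32 (3.02 ± 0.34) led those lists. In GFP-negative cells the same lists had 7 higher and 0 lower of 20, 6 higher and 1 lower of 15, and 2 higher and 1 lower of 14. Over all 15513 genes there, 1332 were called higher and 1512 lower.

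Glutathione genes were read beside CHAC1, whose substrate they make or supply. Of 12 tested paralogues and partners in GFP-positive cells 4 were called higher and 2 lower, beside 1959 and 1716 of all 15333 genes. GCLM, a subunit of the rate-limiting enzyme of glutathione synthesis, rose by 1.84 ± 0.26 on the log2 scale and SLC7A11 by the value above. Named after their values were seen, the paralogue CHAC2 (-1.36 ± 0.39, adjusted p = 0.0039, edgeR) and glutathione synthetase GSS (-1.02 ± 0.18, adjusted p = 1.9e-05) were lower.

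**Figure D5:**
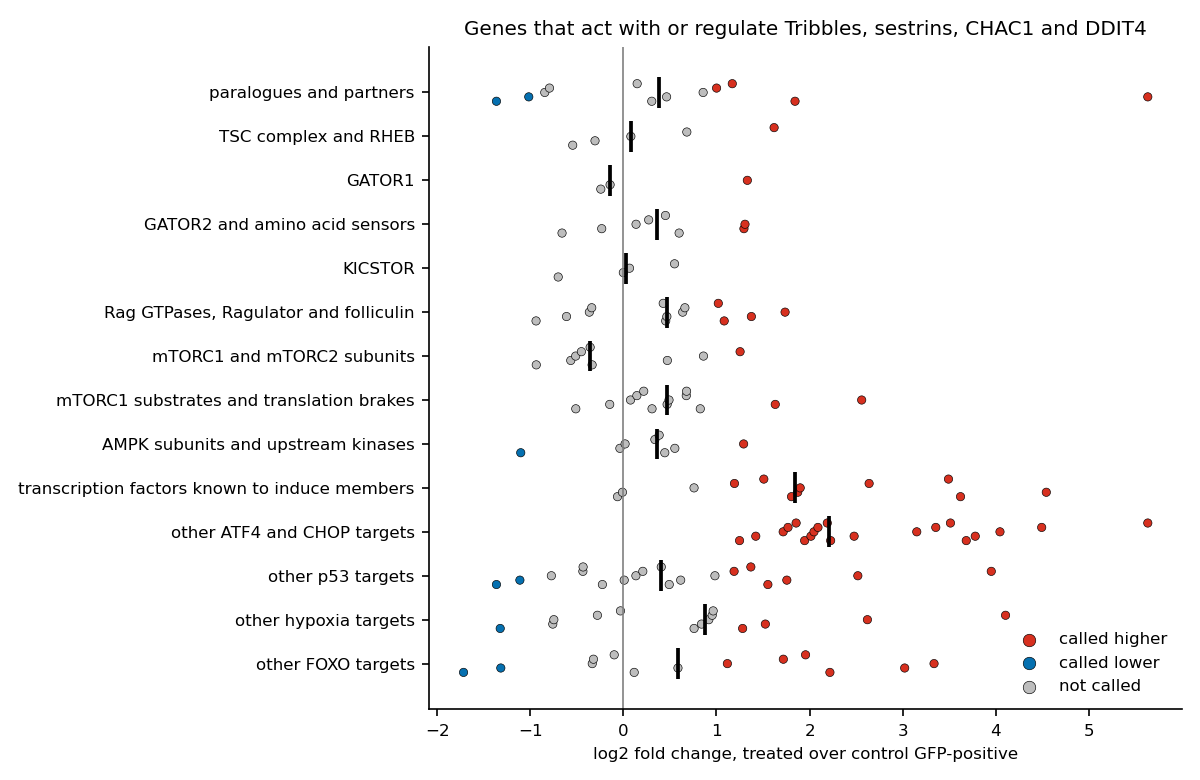
Log2 fold change of treated over control GFP-positive cells for every tested gene of 14 lists, 1 point per gene, red where called higher, blue where called lower, with black bars at list medians. All 20 other ATF4 and CHOP targets, a list chosen with earlier results of these data known, lie to the right, while lists of mTORC1 machinery centre near 0.

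Levels over the 12 libraries were last compared between genes by Pearson's r of log2(CPM + 1), given as a description, since treatment and fraction are shared by all. TRIB3 was most like WARS1 (r = 0.991), CTH (0.991) and SESN2 (0.990), and SESN2 most like WARS1, KLHDC7B and HYOU1 (0.993 each). CHAC1 was most like SIAH2 (0.987), NPRL2 (0.986) and PHLDB3 (0.982). NPRL2, a GATOR1 subunit, read 102, 91.6 and 102.7 CPM in treated GFP-positive and 107, 70.5 and 149 CPM in treated GFP-negative cultures. Like CHAC1 it was lowest in culture 2 in both fractions and highest in culture 3 in GFP-negative cells. In GFP-positive cells its cultures 1 and 3 were nearly equal, unlike those of CHAC1. DDIT4 was most like RAD9A (0.975), TMEM104 (0.971) and IL1A (0.966), the last with no more than 48 counts in any library. CHAC1 and DDIT4 correlated at 0.963 with each other. TRIB2 was most like the neuronal adhesion genes NCAM1 (0.985) and LSAMP (0.982) and like RAB15 (0.982). For TRIB1 these were PAQR5 (0.938), RNVU1-7 (0.933) and NHLRC1 (0.932), each with no more than 31 counts in any library, for SESN1 RABIF (0.945), AKIRIN2 (0.938) and SLC25A30 (0.928), and for SESN3 EML5 (0.969, with no more than 64 counts), ZNF148 (0.958) and SLC16A7 (0.954).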

How the data were processed

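RNA of 12 libraries was extracted with TRIzol and sequenced from stranded mRNA libraries as single-end reads. Per the labels and methods, the authors joined lanes, aligned them with HISAT2 (hg38, Ensembl annotation), and counted them with featureCounts, whose version and strand setting are not given in the sources used here. The deposited values are raw counts per gene symbol. Of the per-sample columns 0 were left unused.

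The main test was that of edgeR 4.0.16 (R 4.3.3, TMM, filterByExpr with a minimum count of 10 and a minimum total of 15, quasi-likelihood F-test, Benjamini-Hochberg over all genes tested), SE being the log2 fold change over the square root of F. An exact two-sided permutation test of 3 against 3 cannot go under 0.1, so none is given. The genes, lists, tests and alternatives were chosen with earlier results of these data known. Identifiers and positions are GENCODE's, matched by symbol. Named besides the 9 genes were the 3 genes most correlated with each, ISL1 for the sort, and up to 2 called genes per list, those that changed most to the same side as the median of that list. Genes named after their values were seen are marked. Alternatives are in the closing section, with DESeq2 1.42.0 among them. Fits were tested on simulated counts. On them the interaction tests exceeded the nominal share of false calls, DESeq2 most, and the limit of that check was loosened after it had failed, so interaction calls by DESeq2 support nothing here.

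Positions and exon lengths came from hg38 with GENCODE 44, not the authors' annotation, and 25763 of 28278 symbols matched. Near-identical copies were not resolved. Replicates differed beyond sampling noise. Over 16226 genes, deviations from group means correlated between same-numbered sorts at 0.425, 0.138 and 0.383 without and at 0.218, 0.25 and 0.512 with treatment. Sorts with different numbers correlated from -0.479 to 0.105 without and from -0.378 to 0.225 with treatment. Culture numbers were taken to pair the fractions, although these ranges overlapped in treated cells. Same-numbered control and treated libraries correlated from -0.055 to 0.231 in GFP-positive and from -0.04 to 0.311 in GFP-negative cells. Those with different numbers correlated from -0.289 to 0.124 and from -0.233 to 0.136, so the ranges overlapped in each fraction. Numbers were not taken to pair treated with control libraries. Genes are not independent replicates. Floors cover counting error only. Figures were drawn with matplotlib 3.10.9.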

Additional observations from a re-analysis of the deposited data

Results flagged for a closer look

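TRIB3 stood out because its response to treatment differed between the sort fractions in the fit with the culture as a block, by -1.14 on the log2 scale (adjusted p = 0.0064, edgeR), GFP-positive minus GFP-negative. Without the block the difference was -1.10 and the adjusted p 0.063, and the block moved it past the threshold. It was also past the threshold in 3 of the other alternatives, with DESeq2, without the filter on low counts and without control GFP-negative culture 1. The DESeq2 call supports nothing here, since that interaction test made the most false calls on simulated counts. The blocked fit was taken up here after both values were known. On simulated counts the interaction test without a block made more false calls than its nominal share, and the blocked fit was not simulated. Both fractions rose, and the treated level was lower in GFP-positive cells in 3 of 3 cultures.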

How the results depend on the processing

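Of 592 values of the 8 genes under alternatives, 564 kept their direction and side of the threshold, 14 reversed, 8 fell below a call and 6 passed one. TRIB3, CHAC1, SESN2 and DDIT4 were called in all 15 alternatives in both fractions. Testing against a 2-fold change with glmTreat left 1648 of 3675 calls over all genes in GFP-positive and 812 of 2844 in GFP-negative cells. Between control fractions 0 of the 8 genes were called with at least 10 counts in every library, or in 1 of the fits that left out a library (range 0 to 1), since TRIB2 fell just under 2-fold. Between treated fractions library size alone called 1, TRIB3 falling to -0.94. In the interaction 1 of 8 was called with DESeq2, without the filter, with the culture as a replicate block and without 1 library (range 0 to 1), each time TRIB3. All genes called there were 355, 791 with DESeq2, 1264 with the culture block and 141 to 414 with a library left out. Numbers were not taken to pair treated with control libraries, and a replicate block by number between them put TRIB1 in GFP-negative cells at 0.99 and changed no other call. The 14 reversals were of differences not called in the main analysis: SESN3 in GFP-positive cells with the GC trend removed (-0.08), DDIT4 in the interaction with library size alone (0.13) and with the block (0.02), and, over fits that left out 1 library, SESN3 in GFP-negative cells (-0.45 to 0.08), TRIB3 (-0.31 to 0.15) and SESN3 (-0.15 to 0.42) between control fractions, CHAC1 (-0.71 to 0.64) and DDIT4 (-1.3 to 0.31) between treated fractions, and CHAC1 (-1.05 to 0.32) and DDIT4 (-0.55 to 0.88) in the interaction. Library size alone moved the median of all genes from 0.034 to 0.142 in GFP-positive cells, from 0.051 to 0.218 between treated fractions, whose calls went from 1541 higher and 2117 lower to 2230 and 1770, and from -0.051 to 0.205 in the interaction, whose calls went from 157 and 198 to 266 and 84. The cause was not tested. Genes at the floor, such as NUPR1, were beyond this depth.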

Other observations

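Culture 3 was compared with cultures 1 and 2 over all genes, in treated and in control cells. No like count was made for culture 1 or culture 2, so whether culture 3 differed more than they did was not tested. Of 16226 genes, 85 were at least 2-fold higher in treated culture 3 than in the mean of cultures 1 and 2 in GFP-positive cells and 85 in GFP-negative cells, on CPM with 1 added, and 22 were in both. In controls the same count was 9 in GFP-positive and 521 in GFP-negative cells. A count of at least this size was thus seen without treatment in GFP-negative cells, but not in GFP-positive cells. Control GFP-negative libraries 1 and 3 correlated at 0.9615, the lowest value of any replicate pair. Chosen after their values were seen, the 22 included the metallothioneins MT1E (4.62-fold and 2.98-fold), MT1X (2.66-fold and 2.29-fold) and MT2A (2.98-fold and 2.08-fold), which bind zinc and other metals. DDIT4 was the 1 gene of the 9 among them. The fractions share a culture, so the overlap is not a repeat.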
